A study of Mus musculus with 108 samples.

Results

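Night and day were compared in livers of C57BL/6J (B6) mice on a high fat diet. The members are the 12 wild-type B6 libraries from mice on high fat and sucrose diet D12492i from 4 sampling times, given as zeitgeber time (ZT, in hours from lights on). They comprise 6 night libraries (3 at ZT18, 3 at ZT22) and 6 day libraries (3 at ZT6, 3 at ZT10), out of 108 libraries in the whole series. All were liver samples from males. Ages and the light schedule are not given in the sources used here. For each diet and strain there were 6 times with 3 numbered replicates each, and the 6 B6 high-fat libraries of ZT2 and ZT14 helped to estimate the spread. The series asks how strain and diet shape daily expression in the liver. For comparison, the same times were used from wild-type male B6 mice on chow (12 libraries) and from wild-type male 129S1/SvImJ (129) mice on the same high-fat diet (12 libraries). The labels do not say whether numbered replicates came from different animals. The p-values therefore cover only the spread between these libraries, which may be technical.

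Liver cells keep time with a transcriptional loop. CLOCK and ARNTL (BMAL1) activate genes through E-boxes, among them the Per and Cry genes, whose proteins hold the pair back, and the Nr1d1 and Nr1d2 genes, whose REV-ERB proteins repress targets through ROR elements that the ROR activators share. A further layer is formed by DBP, TEF and HLF, which activate through D-boxes, and NFIL3, which represses through the same sites. In liver the loop is known to time bile acid, cholesterol, carbohydrate and drug metabolism, and feeding adds its own timing to many of these genes.

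The promoter windows of 6 genes are printed to show these elements in genes that were higher at night (Arntl, Nfil3, Cry1, Lonrf3 and the chaperone gene Hsph1) or by day (Per3). A seventh window holds the start sites of Abcg8 and, on the other strand, of Abcg5. They are RefSeq windows of build GRCm38.p6, from 250 bases before to 50 after a start site, written 5′ to 3′ in the direction of the gene. Capitals mark TAGGTCA (a ROR element core) or its reverse complement in Arntl and Nfil3, CACGTG (an E-box) in Cry1 and Lonrf3, TTATGTAA (a D-box) in Per3, and the reverse complement of a heat shock element core (GAA, TTC and GAA with NN between them) in Hsph1. In the last window they mark the first base of each of the 2 genes, which lie 110 bases apart and point away from each other. The windows are Arntl chr7:113207261-113207560, plus strand, Nfil3 chr13:52980990-52981289, minus strand, Cry1 chr10:85185005-85185304, minus strand, Lonrf3 chrX:36328159-36328458, plus strand, Per3 chr4:151044616-151044915, minus strand, Hsph1 chr5:149636266-149636565, minus strand, and Abcg8 chr17:84682871-84683170, plus strand.
Arntl: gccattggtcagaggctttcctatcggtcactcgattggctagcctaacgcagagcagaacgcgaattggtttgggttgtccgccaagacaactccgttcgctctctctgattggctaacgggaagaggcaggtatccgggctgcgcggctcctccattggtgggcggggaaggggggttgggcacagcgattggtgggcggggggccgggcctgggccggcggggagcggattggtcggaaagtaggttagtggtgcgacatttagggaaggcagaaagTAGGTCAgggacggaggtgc
Nfil3: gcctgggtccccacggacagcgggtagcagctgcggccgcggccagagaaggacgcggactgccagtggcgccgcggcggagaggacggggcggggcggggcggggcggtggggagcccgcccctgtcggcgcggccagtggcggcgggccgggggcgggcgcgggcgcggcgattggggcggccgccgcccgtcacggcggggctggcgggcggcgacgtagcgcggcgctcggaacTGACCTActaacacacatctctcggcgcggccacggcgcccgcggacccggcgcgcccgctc
Cry1: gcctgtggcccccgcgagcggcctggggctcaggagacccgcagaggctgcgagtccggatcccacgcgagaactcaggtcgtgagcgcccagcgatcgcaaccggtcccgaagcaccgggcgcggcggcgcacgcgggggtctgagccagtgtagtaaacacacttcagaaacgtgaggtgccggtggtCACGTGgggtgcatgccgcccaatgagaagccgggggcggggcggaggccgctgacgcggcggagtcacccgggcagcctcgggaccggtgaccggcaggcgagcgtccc
Lonrf3: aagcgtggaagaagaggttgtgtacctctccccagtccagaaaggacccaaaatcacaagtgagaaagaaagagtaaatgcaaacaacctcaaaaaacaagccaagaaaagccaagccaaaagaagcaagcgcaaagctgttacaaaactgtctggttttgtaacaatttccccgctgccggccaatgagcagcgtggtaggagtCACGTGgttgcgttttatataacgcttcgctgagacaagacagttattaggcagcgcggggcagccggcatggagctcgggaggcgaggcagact
Per3: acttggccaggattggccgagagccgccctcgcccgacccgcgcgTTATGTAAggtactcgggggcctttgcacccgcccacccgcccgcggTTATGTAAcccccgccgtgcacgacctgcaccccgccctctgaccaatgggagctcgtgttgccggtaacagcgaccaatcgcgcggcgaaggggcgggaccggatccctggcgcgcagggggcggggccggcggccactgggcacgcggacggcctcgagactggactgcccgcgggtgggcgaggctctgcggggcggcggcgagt
Hsph1: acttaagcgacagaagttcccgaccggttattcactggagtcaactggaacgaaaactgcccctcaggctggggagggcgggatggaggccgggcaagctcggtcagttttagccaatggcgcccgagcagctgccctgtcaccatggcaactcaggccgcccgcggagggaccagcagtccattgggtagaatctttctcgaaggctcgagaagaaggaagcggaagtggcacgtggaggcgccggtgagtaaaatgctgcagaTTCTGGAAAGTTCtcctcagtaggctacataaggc
Abcg8: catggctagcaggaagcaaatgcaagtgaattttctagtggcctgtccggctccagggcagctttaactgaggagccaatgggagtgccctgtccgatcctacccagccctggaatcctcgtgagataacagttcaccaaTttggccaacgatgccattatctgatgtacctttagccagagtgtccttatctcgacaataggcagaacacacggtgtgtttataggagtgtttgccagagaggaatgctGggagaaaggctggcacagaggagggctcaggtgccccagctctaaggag
Of 32851 windows searched on both strands, CACGTG was in 7.15%, TAGGTCA in 2.61%, TTATGTAA in 0.938% and the heat shock element core in 0.603%. These motifs do not overlap one another in the windows shown, and the Hsph1 window also holds 1 CACGTG, in lower case. Windows were found for 21 of the 25 clock genes tested. Among the 4 of them called higher at night, 2 held CACGTG (Cry1, Lonrf3) and 2 held TAGGTCA (Arntl, Nfil3). Among the 4 called higher by day, Per3 held 2 copies of TTATGTAA and the windows of Dbp, Nr1d1 and Nr1d2 held none of the 4 motifs. Of the 13 clock genes not called, 5 held CACGTG. A match is a description of letters, and nothing about binding was measured.

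The values are normalised reads, the authors' quantile-normalised read numbers for each transcript. They keep no sequencing depth, since every library has the same total of 10837743, and any shift common to most genes is lost. Differences are night minus day on the scale log2(value + 1), which understates the change of low genes, from a two-sided limma fit to the 18 B6 high-fat libraries. A gene was called when its Benjamini-Hochberg adjusted p was under 0.05 over the 11287 genes tested.

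The libraries ZT22 replicate 3 and ZT6 replicate 1 stood apart. ZT22 replicate 3 had the highest acute-phase and leukocyte signal. Saa1, a serum amyloid secreted by inflamed liver, was at 110328 against 113 to 1325 by day. The 4 tested of 10 listed neutrophil markers summed to 18287 there, against 13.2 at most by day. Some hepatocyte genes were low in it: Scd1, a fatty acid desaturase, was at 83.3 against 10401 or more in the other 5 night libraries. ZT6 replicate 1 had 3.25% of genes under 1 normalised read, against at most 0.948% in the other day libraries. The transcript Mir6236 ran from 45004 to 91012 in the 3 ZT6 libraries and from 915 to 17840 at the other 5 times. Between the 6 night and 6 day libraries its log2 level did not differ past the threshold (means 12.61 and 14.14, exact permutation test, two-sided, p = 0.145, adjusted over 3 library measures 0.296, smallest possible 0.00216). The day group of that test pools ZT6 with ZT10 (2323 to 17840), so it does not address the high level at ZT6.

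Of 11287 genes tested, 127 were called between night and day (1.13%): 73 were higher at night (0.647%) and 54 by day (0.478%). Of the called genes, 56 differed by at least 2-fold, 41 upward at night and 15 upward by day. All 6 night libraries lay above all 6 day libraries for 64 genes (0.567%) and below them for 59 (0.523%), and 28 and 30 of these were among the called genes. Among the called genes the largest change was in a clock gene, Dbp, and of the 6 largest 3 were clock genes (Dbp, Nr1d1 and Arntl), beside Cdkn1a, Rgs16 and Cyp2b10. In 124 of the 127 called genes both night times lay on one side of both day times. These genes were selected on the same libraries and times, which favours such a pattern. It is therefore no separate support, and the share over all genes was not computed. The peak times that follow also only describe the selected genes. Of the genes higher at night, 33 had their highest of 6 time means at ZT22, 21 at ZT18, 16 at ZT2 and 3 at ZT14. Of the genes higher by day, 27 peaked at ZT6, 25 at ZT10 and 1 each at ZT2 and ZT14. At an unadjusted limma p under 0.05 there were 1764 genes (15.6%), 929 higher at night (8.23%) and 835 by day (7.4%). The median difference over all genes was 0.01, and 51.4% of all genes had a positive difference, with 5% to 95% of genes between -0.57 and 0.66.

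The number of calls depended on single libraries and on the spread model. It was 36 without ZT18 replicate 2, 37 without ZT10 replicate 1, 50 without ZT18 replicate 3, 70 without ZT10 replicate 2, 72 without ZT22 replicate 2, 79 without ZT10 replicate 3, and 215 without ZT6 replicate 1. Of the 127 genes, 31 stayed called in every fit without 1 library, 20 of them higher at night and 11 by day. When the level of Mir6236 was added as a covariate, 12 genes were called, all among the 127. They included Dbp, Nr1d1, Sphk2 and Abcg8 by day, and Pnrc1, Ypel2, Desi2, Skil, Nfil3, Lonrf3 and Clpx at night. The split turned toward the day in 2 fits: after removal of a GC and length trend, 233 genes were called, 109 higher at night and 124 by day, and without ZT22 replicate 1, 185 were called, 84 at night and 101 by day.

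**Figure D1:**
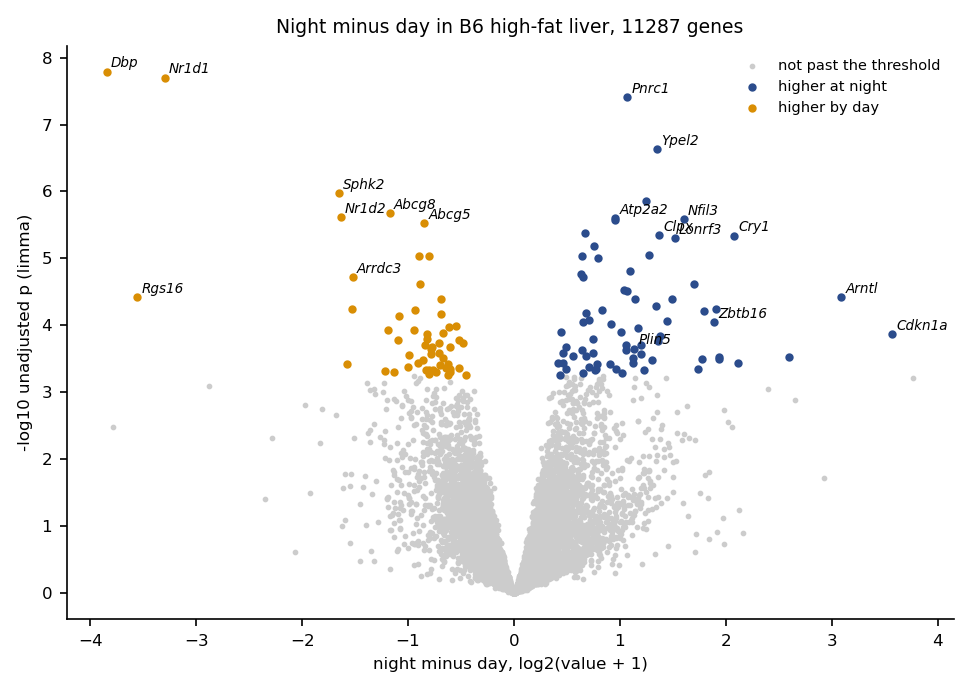
Night minus day on the log2(value + 1) scale (x axis) against -log10 of the unadjusted limma p (y axis) for each of the 11287 genes. The 73 genes called higher at night are blue, the 54 called higher by day are orange, and Dbp and Nr1d1 lie farthest up on the left.

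The clock was the group with the most calls. Of its 27 listed genes 25 were tested, and 5 were called higher at night and 4 by day, against 1.13% of all genes. The activators came first. Arntl, which encodes the partner of CLOCK, ranged over 36.7 to 229 normalised reads at night (median 170.4) and 3.96 to 84.1 by day (median 13.4). Its lowest night library was ZT22 replicate 3 and its highest day library ZT6 replicate 1, and these overlapped, while the other 5 night libraries were above every day library. The difference was 3.09 ± 0.56 (SE, adjusted p = 0.013), and 3.50 without ZT22 replicate 3. Its partner Clock ranged over 578 to 1042 normalised reads at night (median 889) and 383 to 1036 by day (median 525), a difference of 0.53 ± 0.18 (adjusted p = 0.163) that did not pass. Npas2, which can stand in for CLOCK, had a median of 6.72 at night and 2.49 by day and was not called either.

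Among the repressors that the activators switch on, Cry1 and Per3 moved in opposite directions. Cry1 ranged over 65.1 to 276 normalised reads at night (median 176) and 21.2 to 74.9 by day (median 33.7). Only ZT22 replicate 3 fell inside the day range, and the difference was 2.08 ± 0.32 (SE, adjusted p = 0.00343). Per3 ran the other way, with 23.1 to 123 normalised reads at night (median 71.4) and 78.3 to 255 by day (median 193), and its groups overlapped. At ZT2 its values were 11.5, 9.27 and 8.47, below all 12 night and day libraries. Its difference of -1.57 ± 0.36 (SE, adjusted p = 0.0426) passed in 11 of 25 alternatives, with adjusted p from 0.000445 to 0.201, and was -1.92 without ZT22 replicate 3. Per1, Per2, Cry2, Ciart, Bhlhe40 and Bhlhe41, the other repressors listed, did not pass, with differences from -1.14 (Ciart) to -0.03 (Per1). For Per2 the times of the day lay apart, and its values were 53, 124 and 86.2 at ZT6 and 127, 201 and 249 at ZT10.

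The REV-ERB repressors were high by day. Nr1d1 was at 132, 129 and 133 at ZT6 and 66.3, 93.5 and 39.8 at ZT10, and at 9.97, 5.43 and 5.7 at ZT18 and 11.8, 7.67 and 11.8 at ZT22. Every night library was below every day library, and the 3 ZT6 libraries were nearly equal and highest. The difference was -3.30 ± 0.34 (SE, adjusted p = 0.000112). Nr1d2 ranged over 241 to 709.7 normalised reads at night (median 314) and 849 to 1306 by day (median 1109.7), again without overlap, a difference of -1.64 ± 0.24 (adjusted p = 0.00269). Its highest night value was ZT22 replicate 3, and without that library the difference was -1.89. Rora, a ROR activator, did not pass (0.19 ± 0.11, adjusted p = 0.405).

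The output genes included the largest change of all 127. Dbp, the D-box activator, was at 132, 359 and 205 at ZT6 and 298, 271 and 194 at ZT10, and at 16.6, 20.8 and 13.3 at ZT18 and 10, 5.96 and 41.6 at ZT22. The groups did not overlap, and the highest night value was again ZT22 replicate 3. The difference was -3.84 ± 0.39 (SE, adjusted p = 0.000112), and -4.22 without that library. Nfil3, the repressor at the same sites, went the opposite way with 126 to 182 normalised reads at night (median 158) and 28.7 to 109 by day (median 38.2) and no overlap, a difference of 1.60 ± 0.23 (adjusted p = 0.00269). Lonrf3, a RING-finger gene, ranged over 90.5 to 314 normalised reads at night (median 224) and 50.1 to 108 by day (median 74.9), with only ZT22 replicate 3 inside the day range and a difference of 1.52 ± 0.23 (adjusted p = 0.00352). Tef, the sister factor of Dbp, had a difference of -0.80 ± 0.23 (adjusted p = 0.0946) that did not pass, and Hlf one of 0.07 ± 0.26 (adjusted p = 0.927). Usp2, Nampt, Wee1, Tspan4 and Por were not called. Dbp, Nr1d1, Nfil3 and Lonrf3 stayed past the threshold in every alternative that could be computed for them.

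**Figure D2:**
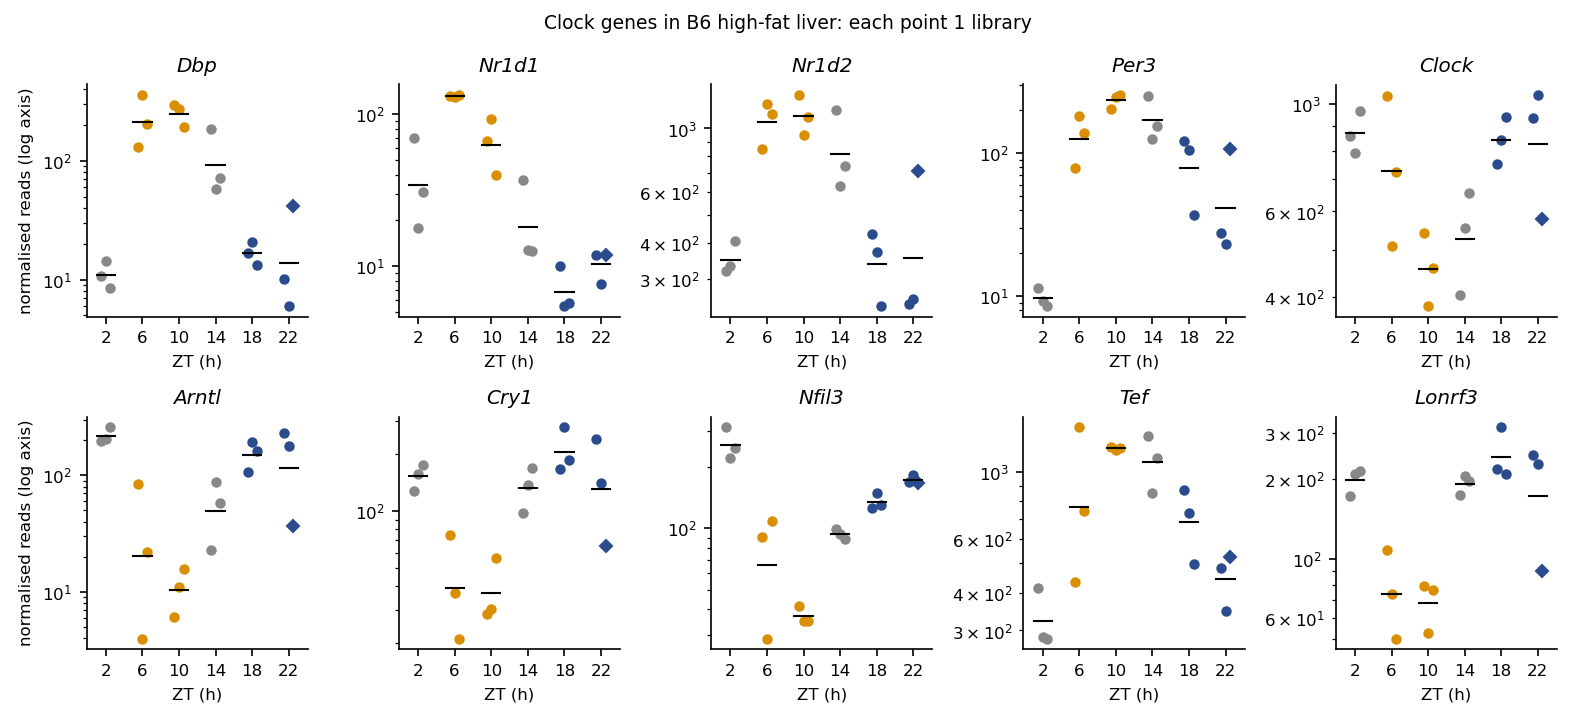
Normalised reads (y axis, log scale) of 10 clock genes at each ZT (x axis, h) in the 18 B6 high-fat libraries; points are libraries (orange day, blue night, grey ZT2 and ZT14), bars are means of log2(value + 1), and the diamond is ZT22 replicate 3. Dbp, Nr1d1, Nr1d2 and Per3 are high by day, Arntl, Cry1, Nfil3 and Lonrf3 at night, and the diamond lies nearest to the day libraries among the night libraries of Dbp, Nr1d2, Arntl, Cry1 and Lonrf3.

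Transcripts of the sterol exporter genes Abcg5 and Abcg8 were higher by day. ABCG5 and ABCG8 form the pair that pumps cholesterol into bile, and their genes share the divergent promoter printed above. Abcg8 ranged over 167 to 334 normalised reads at night (median 224) and 406 to 606 by day (median 535), and Abcg5 over 268 to 371 normalised reads at night (median 296) and 459 to 703 by day (median 516). In both genes every night library was below every day library. The differences were -1.17 ± 0.17 (adjusted p = 0.00269) for Abcg8 and -0.84 ± 0.12 (adjusted p = 0.00279) for Abcg5. They were the 2 calls among the 22 listed bile acid genes, against 1.13% of all genes. At an unadjusted limma p under 0.05, 1 of the 22 was higher at night and 6 by day (15.6% of all genes). Of the 22, 3 had a positive and 19 a negative difference. The median was -0.22 against 0.01 over all genes (-0.12 without ZT22 replicate 3). Cyp7a1, the rate-limiting enzyme of bile acid synthesis, did not pass (0.07 ± 0.23, adjusted p = 0.911).

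Other genes of cholesterol handling were chosen after their values were seen. Soat2, which esterifies cholesterol, ranged over 85.7 to 117 normalised reads at night (median 96.4) and 133 to 204 by day (median 153), without overlap, a difference of -0.67 ± 0.14 (adjusted p = 0.026). Gpr146, a receptor known for its effect on plasma cholesterol, ranged over 167 to 369.5 normalised reads at night (median 225) and 350.0 to 542 by day (median 445). One night library, ZT22 replicate 3, lay inside the day range, and the difference was -0.89 ± 0.14 (adjusted p = 0.00499). None of the 26 listed cholesterol synthesis and uptake genes was called, and 4 had an unadjusted limma p under 0.05, near the share of 15.6% over all genes. Their median was -0.20, and -0.08 without ZT22 replicate 3.

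The carbohydrate and insulin lists had 1 call each, against 1.13% of all genes, and differences of both signs in about equal number. Ugp2, which makes UDP-glucose for glycogen, ranged over 1113 to 4559.7 normalised reads at night (median 2994) and 4942 to 6798 by day (median 5705), without overlap. Its lowest value was ZT22 replicate 3, and the difference was -1.08 ± 0.21 (adjusted p = 0.0185), or -0.91 without that library. It was the only call among 23 genes of glycolysis and glycogen, where 11 differences were positive and 12 negative (median -0.03). Igfbp3, a carrier of IGF1, was the only call among 17 insulin and IGF genes, of which 8 were positive and 9 negative (median -0.07). It ranged over 21.3 to 101 normalised reads at night (median 55.6) and 82 to 182 by day (median 113), with overlap, and its difference of -1.14 ± 0.27 (adjusted p = 0.0466) passed in 10 of 25 alternatives (adjusted p 0.00024 to 0.192). Klb, the co-receptor for FGF21 and FGF15, named after its values were seen, ranged over 111 to 273 normalised reads at night (median 208) and 281 to 519 by day (median 324) without overlap, a difference of -0.78 ± 0.17 (adjusted p = 0.0336). None of the 21 gluconeogenesis genes was called (1 with an unadjusted limma p under 0.05, against 15.6% of all genes), with Pck1 at 0.36 ± 0.28 (adjusted p = 0.565) and G6pc at -0.17 ± 0.38 (adjusted p = 0.865).

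Arrdc3, an arrestin-domain adaptor, was among the largest day genes. Its values were 3642, 2075 and 4335 at ZT6 and 2916, 2546 and 3043 at ZT10, and 1366, 1060.0 and 1927 at ZT18 and 1604, 609.6 and 485 at ZT22. There was no overlap, and the difference was -1.52 ± 0.26 (adjusted p = 0.00825). Rgs16, a brake on G protein signalling, named after its values were seen, ranged over 1.13 to 187 normalised reads at night (median 61) and 27.7 to 985 by day (median 420.3). The difference of -3.56 ± 0.65 (adjusted p = 0.013) was the second largest toward the day, although ZT6 replicate 1 was low and the groups overlapped. Sphk2, a sphingosine kinase, ranged over 59.5 to 133 normalised reads at night (median 72.3) and 144 to 400.0 by day (median 228) without overlap, a difference of -1.65 ± 0.22 (adjusted p = 0.00241). The transcripts of Sphk2 and Dbp overlap by 741 bases on chromosome 7 and the sources used here do not state that strand was used in counting, so reads of the 2 genes may be mixed.

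Flcn, Fnip2, Gabarapl1 and Retreg1, genes of nutrient sensing and autophagy, were also higher by day. Flcn and Fnip2 encode 2 parts of the folliculin complex, which acts on mTORC1 at the lysosome. Flcn ranged over 57.5 to 95.1 normalised reads at night (median 77.8) and 105 to 160.3 by day (median 129) without overlap, a difference of -0.77 ± 0.16 (adjusted p = 0.0331). Fnip2 had a difference of -0.82 ± 0.17 (adjusted p = 0.0292), and only ZT6 replicate 1 among the day libraries lay inside the night range. Gabarapl1, an autophagosome protein, was the only call among 27 autophagy and lysosome genes, against 1.13% of all genes. It ranged over 702 to 1509 normalised reads at night (median 1048) and 1513 to 2038 by day (median 1735), a difference of -0.70 ± 0.16 (adjusted p = 0.043), and passed in 11 of 25 alternatives (adjusted p 0.00806 to 0.268). Retreg1, a receptor for autophagy of the endoplasmic reticulum, ranged over 224 to 438 normalised reads at night (median 365) and 506 to 774 by day (median 690.2) without overlap, a difference of -0.89 ± 0.16 (adjusted p = 0.00963) that passed in 12 of the 12 fits without 1 library. Slc38a3, a glutamine transporter, had a difference of -0.83 ± 0.19 (adjusted p = 0.0456) that passed in 10 of 25 alternatives (adjusted p 0.00544 to 0.19). Flcn, Fnip2, Retreg1 and Slc38a3 were named after their values were seen. The 27 listed autophagy and lysosome genes had 15 positive and 12 negative differences, with a median of 0.04.

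Esrra, the estrogen-related receptor of mitochondrial genes, was lower at night. It ranged over 16.6 to 45.8 normalised reads at night (median 35.6) and 49.9 to 89.9 by day (median 72.5), without overlap. Its lowest value by far was ZT22 replicate 3. The difference was -0.995 ± 0.22 (adjusted p = 0.0373), -0.79 without that library, and it passed in 11 of 24 alternatives (adjusted p 0.0104 to 0.217). Its relatives did not pass: Esrrg had -0.72 ± 0.25 (adjusted p = 0.179), Ppargc1a -0.58 ± 0.27 (adjusted p = 0.312) and Ppargc1b -0.92 ± 0.35 (adjusted p = 0.221). The list that holds Esrra and these relatives had 6 tested genes. At an unadjusted limma p under 0.05, 1 was higher at night and 4 by day (15.6% of all genes). None of the 38 respiratory chain genes was called. Of them 32 were negative and 3 had an unadjusted limma p under 0.05 (15.6% of all genes), with a median of -0.13 that became 0.01 without ZT22 replicate 3. Idh3a, a citric acid cycle subunit named after its values were seen, was higher at night. Its values were 93.2, 113 and 98.8 at ZT6 and 207, 243 and 241 at ZT10 against 228, 220.5 and 248 at ZT18 and 212, 288 and 231 at ZT22. The low values were those of ZT6, and the difference of 0.63 ± 0.11 (adjusted p = 0.00794) did not pass when night was set against ZT10 alone (0.04, adjusted p = 0.982, with a range of 0.000293 to 0.982 over the 25 alternatives).

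Plin5 and Chka, genes of lipid storage and membrane lipids, were higher at night. Plin5, a lipid droplet coat that links droplets to mitochondria, was the only call among 18 droplet genes, against 1.13% of all genes. It ranged over 89.7 to 347 normalised reads at night (median 257) and 63.7 to 147 by day (median 97.6). Only ZT22 replicate 3 lay inside the day range. The difference was 1.14 ± 0.24 (adjusted p = 0.0336) and 1.35 without that library. Chka, the choline kinase that starts phosphatidylcholine synthesis, had 93.8 to 522 normalised reads at night (median 299.8) and 49.9 to 231 by day (median 67.4), a difference of 1.78 ± 0.40 (adjusted p = 0.0397) that passed in 10 of 25 alternatives. ZT6 replicate 1 was its highest day library, and ZT18 replicate 1 and ZT22 replicate 3 lay below it. Chka was named after its values were seen. No member of the 18 fatty acid synthesis, 12 triglyceride, 30 fatty acid oxidation or 17 lipoprotein genes tested was called, and 1, 2, 4 and 4 of them had an unadjusted limma p under 0.05, against 15.6% of all genes. Fasn had a difference of -0.46 ± 0.37 (adjusted p = 0.579), Srebf1 -0.77 ± 0.27 (adjusted p = 0.178) and Cpt1a 0.16 ± 0.15 (adjusted p = 0.638). The fatty acid synthesis median turned from -0.21 to 0.12 without ZT22 replicate 3.

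The most stable night genes outside the clock came from several processes. Pnrc1, a coactivator of nuclear receptors, was at 184, 147 and 140.0 at ZT6, 109, 85.2 and 78 at ZT10, 189.6, 208 and 242 at ZT18 and 324, 284 and 274 at ZT22. Every night library was above every day library, and the difference was 1.07 ± 0.11 (adjusted p = 0.000144). Ypel2 ranged over 115 to 249 normalised reads at night (median 136) and 43.9 to 81.8 by day (median 52.8) without overlap, a difference of 1.35 ± 0.16 (adjusted p = 0.000656). Clpx, the unfoldase of the mitochondrial protease ClpXP, ranged over 1253 to 3057 normalised reads at night (median 2014) and 489 to 1256 by day (median 751). Only ZT18 replicate 1 at night and ZT6 replicate 1 by day overlapped, and the difference was 1.37 ± 0.21 (adjusted p = 0.00343). Desi2 (0.96 ± 0.14, adjusted p = 0.00269) and Skil, a brake on TGF-beta signalling (0.79 ± 0.13, adjusted p = 0.00505), had no overlap. Pnrc1, Ypel2, Clpx, Desi2 and Skil passed under each of the 25 alternatives, and all of them but Ypel2 were named after their values were seen. Slc45a3, also named after its values were seen, ranged over 103 to 315 normalised reads at night (median 267) and 82.8 to 105 by day (median 93.1). Only ZT22 replicate 3 lay inside the day range, and the difference was 1.28 ± 0.21 (adjusted p = 0.00499).

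**Figure D3:**
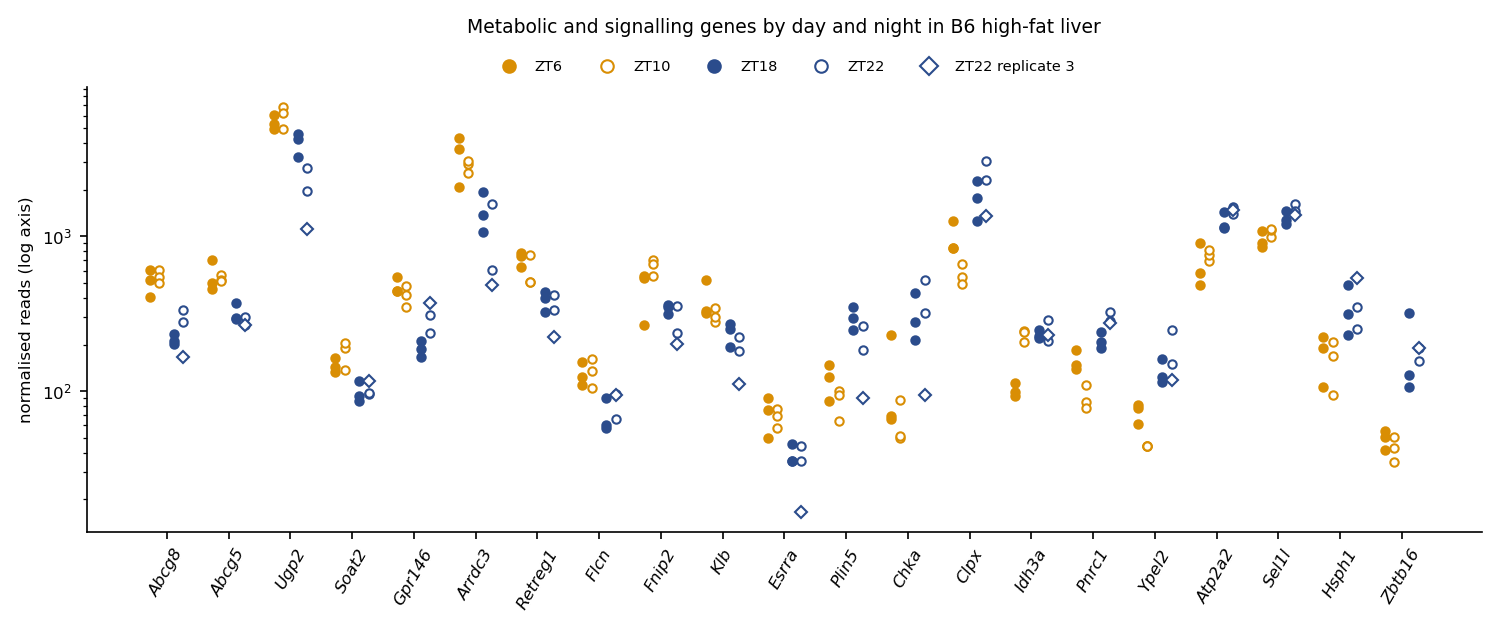
Normalised reads (y axis, log scale) of 21 genes outside the clock in the 6 day libraries (orange, ZT6 filled and ZT10 open) and the 6 night libraries (blue, ZT18 filled and ZT22 open); each point is 1 library and the diamond is ZT22 replicate 3. Abcg5 and Abcg8 are separated by day and Pnrc1, Ypel2 and Atp2a2 by night, while Idh3a is low at ZT6 alone.

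Genes of protein folding in the endoplasmic reticulum and cytosol had mostly positive differences and 2 calls, against 1.13% of all genes called. Sel1l, the adaptor of endoplasmic reticulum-associated degradation, was the only call among 23 genes of the unfolded protein response. It ranged over 1196 to 1606 normalised reads at night (median 1416) and 853 to 1122 by day (median 1039.6) without overlap, a difference of 0.47 ± 0.11 (adjusted p = 0.0426) that passed in 9 of 25 alternatives (adjusted p 0.0014 to 0.397). Of the 23 genes, 21 had positive differences and 8 an unadjusted limma p under 0.05 (15.6% of all genes), with a median of 0.29 that was 0.16 without ZT22 replicate 3. Hspa5 (BiP), the main chaperone of that compartment, had 0.46 ± 0.20 (adjusted p = 0.283) and Creld2 0.85 ± 0.25 (adjusted p = 0.104). Hsph1, a partner of HSP70 in the cytosol, was the only call among 20 heat shock genes. It ranged over 230.0 to 536 normalised reads at night (median 331) and 95 to 223 by day (median 179.6) without overlap, a difference of 1.12 ± 0.25 (adjusted p = 0.039) that passed in 15 of 25 alternatives (adjusted p 0.000532 to 0.298). Hsp90aa1 (0.84 ± 0.20, adjusted p = 0.0505) and Stip1 (0.57 ± 0.14, adjusted p = 0.0513) just missed the threshold. Of the 20 genes, 19 were positive and 9 had an unadjusted limma p under 0.05 (15.6% of all genes), with a median of 0.26, and 0.24 without ZT22 replicate 3. Atp2a2, the SERCA2 calcium pump that fills the endoplasmic reticulum, was named after its values were seen and ranged over 1127 to 1552 normalised reads at night (median 1412) and 488 to 908 by day (median 724) without overlap, a difference of 0.96 ± 0.14 (adjusted p = 0.00269).

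The 15 genes listed as glucocorticoid receptor targets gave 2 night calls, against 0.647% of all genes. At an unadjusted limma p under 0.05, 5 were higher at night and 0 by day, against 8.23% and 7.4% of all genes. Corticosterone was not measured. Zbtb16 (PLZF), a transcription factor, ranged over 107 to 322 normalised reads at night (median 173) and 35 to 54.9 by day (median 46.5) without overlap, a difference of 1.89 ± 0.37 (adjusted p = 0.021). Cdkn1a (p21), a brake on the cell cycle, had the largest night difference, 3.57 ± 0.73 (adjusted p = 0.026), from 8.98 to 56 normalised reads at night (median 29.1) and 0 to 10.3 by day (median 0.599). The groups overlapped, it passed in 17 of 24 alternatives, and at its low day values the size depends on the value added before the log. Fkbp5 (1.23 ± 0.45, adjusted p = 0.198) and Tsc22d3 (0.60 ± 0.28, adjusted p = 0.309), which the receptor also controls, did not pass. Of the 15 genes 11 were positive, with a median of 0.60 that was 0.17 without ZT22 replicate 3. Among the 21 cell cycle genes tested, Cdkn1a was the only call, against 1.13% of all genes.

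The other lists gave single calls or none, against 1.13% of all genes. Cyp2b10, a target of the receptor CAR, was the only call among 30 drug metabolism genes. It ranged over 0.121 to 40 normalised reads at night (median 9.81) and 0 to 3.23 by day (median 0.481), with overlap, a difference of 2.60 ± 0.58 (adjusted p = 0.0388) that passed in 13 of 24 alternatives. Of these 30 genes 23 were negative, with a median of -0.43 that shrank to -0.07 without ZT22 replicate 3. Cyp3a11 was at 27.4 there against 3933 or more in the other night libraries. Psma7 was the 1 proteasome call of 31 (-0.52 ± 0.12, adjusted p = 0.0456, higher by day), Rrp12 the 1 ribosome assembly call of 32 (1.45 ± 0.28, adjusted p = 0.021, higher at night) and Rps16 the 1 cytosolic ribosome call of 48 (1.30 ± 0.29, adjusted p = 0.0399, higher at night). Rps16 ran only from 17.2 to 389 in these libraries, and reads of ribosomal protein genes can be split with near-identical copies. At an unadjusted limma p under 0.05, 4 of the 31 proteasome genes were higher at night and 10 by day. These counts were 7 and 2 of 32 for ribosome assembly, and 2 and 3 of 48 for the cytosolic ribosome. Over all genes the shares were 8.23% and 7.4%. Psma7, Rrp12 and Rps16 passed in 10 of 25, 15 of 24 and 15 of 25 alternatives, with adjusted p of 0.00777 to 0.509, 0.00209 to 0.868 and 0.000286 to 0.9. No gene was called in the growth hormone, haem and iron, NRF2, amino acid and urea, ATF4 and secretory lists. Nor was any called in the cold-inducible, translation factor, NAD, interferon and immediate early lists. At an unadjusted limma p under 0.05, the translation factor list had 6 genes higher at night and 1 by day of 24. These counts were 1 and 3 of 12 for immediate early, 1 and 5 of 28 for amino acid and urea, and 0 and 4 of 20 for NAD. They were 2 and 2 of 19 for interferon, 2 and 1 of 16 for growth hormone, 0 and 3 of 16 for ATF4. The cold-inducible list had 0 and 1 of 4, secretory 4 and 0 of 30, haem and iron 1 and 2 of 22, NRF2 0 and 0 of 20. Over all genes the shares were those above, 8.23% and 7.4%.

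Several genes among the 10 largest without overlap had no list. Higher at night were Ect2, a regulator of cell division (2.12 ± 0.48, adjusted p = 0.0426), Med12l, a Mediator subunit (1.70 ± 0.30, adjusted p = 0.00963), Urml (1.49 ± 0.27, adjusted p = 0.013), Cdcp1 (1.38 ± 0.28, adjusted p = 0.0269), Ablim3 (1.34 ± 0.25, adjusted p = 0.016) and Crip2 (1.20 ± 0.26, adjusted p = 0.0372). Higher by day were Trappc6a, a part of a vesicle tethering complex (-1.53 ± 0.29, adjusted p = 0.0169), Tbc1d10a (-1.19 ± 0.24, adjusted p = 0.0249) and Cbx8, a Polycomb protein (-1.09 ± 0.23, adjusted p = 0.0292). The night values of Med12l ran from 15.8 to 136 and those of Urml from 396 to 1781, with ZT22 replicate 3 the highest in both. Without it the differences were 1.38 and 1.20. Calls of Ect2, Cdcp1, Crip2 and Cbx8 were lost in many alternatives, of which they passed 12 of 24, 15 of 24, 11 of 25 and 14 of 24. Nuclear receptor genes named after their values were seen were Esr1, the estrogen receptor, higher at night (1.02 ± 0.24, adjusted p = 0.0478, past the threshold in 9 of 25 alternatives), and Nr3c2, the mineralocorticoid receptor, higher by day (-0.93 ± 0.18, adjusted p = 0.0169). Also named after their values were seen, Jade1 was higher by day (-0.80 ± 0.13, adjusted p = 0.00499) and Nlrp12 at night (1.14 ± 0.21, adjusted p = 0.013), both without overlap.

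Inflammation genes stood apart in 1 library. None of the 23 acute-phase genes was called, although all 23 had positive differences and 3 an unadjusted limma p under 0.05 (15.6% of all genes). Their median of 0.74 was 0.19 without ZT22 replicate 3. Saa1 was at 766, 158 and 604 at ZT18 and 321, 9658 and 110328 at ZT22, and Lcn2, a neutrophil and liver protein of inflammation, at 23.6, 198 and 10880.0 at ZT22. The neutrophil alarmin genes S100a8 and S100a9 were at 6588 and 7952 in ZT22 replicate 3 and at most 4.17 and 3.04 in the other night libraries. The same library had the highest summed markers of monocytes and macrophages (14832, at most 1091 by day) and Kupffer cells (8587, at most 4521 by day). It also had the highest of cholangiocytes (9099, at most 661 by day) and the lowest of adipocytes (128, at least 17103 by day). Each sum covers only the genes tested, 7 of 12, 14 of 14, 4 of 8 and 4 of 8 in that order. The adipocyte sum was nearly all Car3, which hepatocytes also express (93.1 there), while Adipoq was at 0 in 8 and Plin1 in 8 of the 12 libraries. What these markers contribute to the night-day differences was not tested, beyond the values without this library. In bulk liver RNA, fewer cells of a type and less RNA per cell cannot be told apart.

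No gene of the cell type marker lists was called. The 14 hepatocyte markers, led by Alb, summed to 133721 to 1093510 at night and 352836 to 1069850 by day. Sinusoidal endothelial markers summed to 2191 to 3228 at night and 2618 to 3328 by day, stellate cell markers to 3389 to 5675 and 3740 to 5280, and pericentral hepatocyte markers to 32549 to 63734 and 48628 to 63471. Each sum covers only the genes tested, 11 of 13 for stellate cells. Pancreatic acinar signal was slight. The 1 tested of 10 acinar markers was at 118 at most at night and 197 at most by day, and Pnlip was at 0 in all 12 libraries. At an unadjusted limma p under 0.05, the cholangiocyte list had 1 gene higher at night and 1 by day of 4 tested. The pericentral and periportal lists had 1 of 10 each, both higher by day. No other marker list had any, against 15.6% of all genes.

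**Figure D4:**
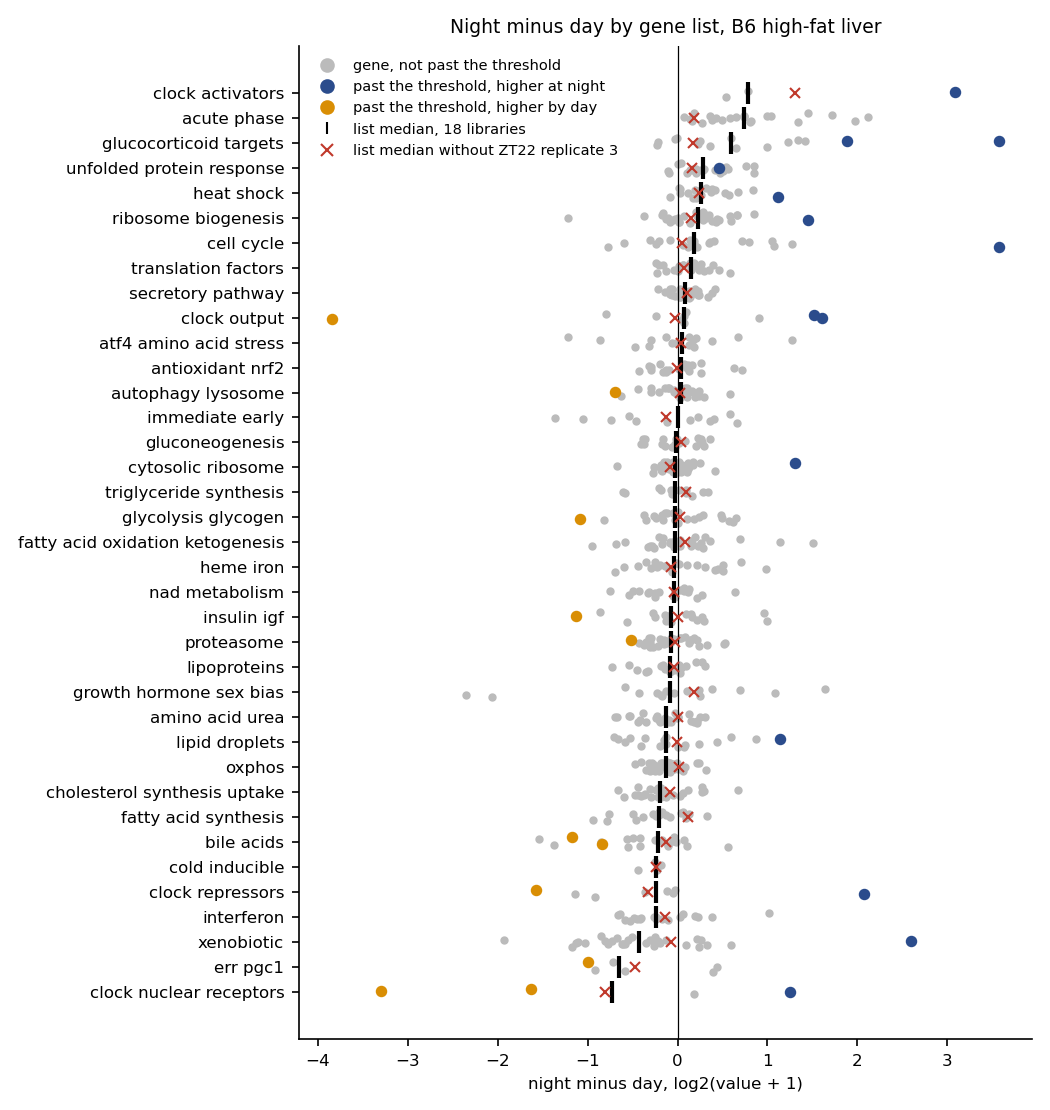
Night minus day on the log2(value + 1) scale (x axis) for every tested gene of 37 gene lists (rows); coloured points are called genes, black bars are list medians over 18 libraries and red crosses are medians without ZT22 replicate 3. The median of the acute-phase list moves from 0.74 to 0.19 and that of the drug metabolism list from -0.43 to -0.07 when that library is left out.

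The night-day differences were then set against those of B6 livers on chow, in a limma fit to the 72 wild-type libraries of the same table. For 52 of 11287 genes (0.461%) the difference itself passed, 41 in the positive direction (night minus day higher on high fat) and 11 in the negative. None of the 25 clock genes was among them. Dbp had night minus day of -3.84 ± 0.47 (SE) on high fat and -3.08 ± 0.47 on chow, Nr1d1 -3.30 ± 0.51 and -4.37 ± 0.51, Arntl 3.09 ± 0.41 and 2.26 ± 0.41, and Cry1 2.08 ± 0.26 and 2.04 ± 0.26. Abcg5 and Abcg8 had -0.73 ± 0.13 and -1.04 ± 0.20 on chow, and their differences between diets did not pass either. The difference between diets was -0.76 ± 0.67 (adjusted p = 0.708) for Dbp, 1.07 ± 0.73 (adjusted p = 0.594) for Nr1d1 and 0.83 ± 0.58 (adjusted p = 0.609) for Arntl.

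The differences of 2 sulfotransferases between diets held under nearly all alternatives. Sult1a1, which sulfates phenols, ranged on chow over 1758 to 2757 at night (median 2458) and 842 to 1420.4 by day (median 984), without overlap. On high fat it ranged over 950.4 to 2575 normalised reads at night (median 1804) and 1409 to 2511 by day (median 2101), with overlap. The difference of night minus day was -1.40 ± 0.22 (adjusted p = 0.000352), and it passed under all 34 alternatives. Sult1d1, a related sulfotransferase, had night minus day of -0.18 ± 0.23 on high fat and 1.51 ± 0.23 on chow, a difference of -1.69 ± 0.33 (adjusted p = 0.012) that passed in 33 of 34 alternatives. Mid1ip1, a partner of acetyl-CoA carboxylase in fat synthesis, was called lower at night on high fat (-1.22 ± 0.28, adjusted p = 0.0456) and had 0.39 ± 0.27 on chow. The difference of -1.61 ± 0.38 (adjusted p = 0.0311) passed in 20 of 34 alternatives, and the high-fat call in 13 of 25. Without ZT22 replicate 3 neither passed (adjusted p = 0.111 and 0.054). Igfbp3 had 0.02 ± 0.20 on chow, a difference of -1.16 ± 0.29 (adjusted p = 0.0431). Trappc6a differed most, by -3.13 ± 0.71 (adjusted p = 0.0291), and passed in 20 of 33 alternatives. On chow it was near the bottom of the range, 2.9 to 18.2 at night (median 6.22) and 0 to 10.9 by day (median 1.17). Spc24, a kinetochore gene, had a difference of -1.51 ± 0.38 (adjusted p = 0.0463) that passed in 9 of 33 alternatives.

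In the positive direction, Neat1, the long noncoding RNA of nuclear paraspeckles, differed most. On high fat it ranged over 6474 to 11457 normalised reads at night (median 9504) and 1842 to 6099 by day (median 3870.3), without overlap. On chow it ranged over 775 to 5224 at night (median 1608) and 858 to 20818 by day (median 5757). The difference was 2.90 ± 0.68 (adjusted p = 0.0311), past the threshold in 19 of 34 alternatives. Night minus day of Neat1 on high fat was itself not called (1.25 ± 0.30, adjusted p = 0.0563). Med12l (1.68 ± 0.34, adjusted p = 0.0162), Nhsl1 (1.67 ± 0.38, adjusted p = 0.0262), Alg8, an enzyme of N-glycan assembly (1.55 ± 0.37, adjusted p = 0.0319), and Phlpp2, a phosphatase of AKT (1.51 ± 0.32, adjusted p = 0.0162), followed. They passed in 29, 23, 16 and 28 of 33 alternatives, in that order. Without ZT22 replicate 3, neither Neat1 nor any of them passed (adjusted p 0.052 to 0.0845). Nor did any with the GC and length trend removed (adjusted p 0.054 to 0.11). Atp2a2 had 0.30 ± 0.11 on chow, a difference of 0.65 ± 0.16 (adjusted p = 0.0398). Herc1, a very large ubiquitin ligase named after its values were seen, differed from chow by 0.68 ± 0.11 (adjusted p = 0.000352). Its night minus day was 0.35 ± 0.09 on high fat, not called (adjusted p = 0.068), and -0.33 ± 0.07 on chow. Nhsl1 and Phlpp2 were not called on high fat either (1.17 ± 0.33, adjusted p = 0.097, and 0.96 ± 0.29, adjusted p = 0.114). On chow they had -0.51 ± 0.27 and -0.55 ± 0.23. Vkorc1 also differed from chow, by 0.84 ± 0.18 (adjusted p = 0.0162). Its night rise on high fat did not pass against ZT10 alone (0.23, adjusted p = 0.84). The count of 52 moved with single libraries: of the high-fat libraries, leaving out ZT22 replicate 3 gave 6, ZT18 replicates 2 and 3 gave 17 and 15, ZT10 replicates 1 and 3 gave 19 and 27, ZT6 replicate 2 gave 30, ZT22 replicate 2 gave 88, ZT6 replicate 1 gave 143 and ZT22 replicate 1 gave 203. Of the chow libraries, leaving out ZT10 replicates 1, 2 and 3 gave 6, 27 and 90, ZT6 replicates 2 and 3 gave 12 and 32, ZT18 replicate 1 gave 19, and ZT22 replicates 1 and 2 gave 20 and 17. With a GC and length trend removed, 15 genes were called, 8 of them among the 52, and the split turned to 4 positive and 11 negative.

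Against 129 livers on the same diet, 3 of 11287 genes passed (0.0266%), and 716 had an unadjusted limma p under 0.05. Vkorc1, the vitamin K epoxide reductase, was called higher at night in B6 (0.76 ± 0.12, adjusted p = 0.00436), and had -0.10 ± 0.12 in 129, a difference of 0.86 ± 0.18 (adjusted p = 0.0409) that passed in 14 of 34 alternatives. Its low values in B6 were those of ZT6, 119, 138 and 158, and its B6 call did not pass against ZT10 alone (0.23, adjusted p = 0.84). Urml had a difference of 1.92 ± 0.38 (adjusted p = 0.0261), but it was listed at 0 to 3.41 in the 12 night and day libraries of 129, so there was no level there to vary. No clock gene passed: Dbp had -3.53 ± 0.47, Nr1d1 -3.01 ± 0.51, Arntl 2.97 ± 0.41 and Cry1 2.75 ± 0.26 in 129. The build is the B6 genome, which can lower the values of 129 where reads carry variants. The count was 1 without any one of 8 libraries (in B6 ZT10 replicate 1, ZT18 replicate 3 and ZT22 replicate 3, in 129 ZT6 replicate 2, ZT10 replicate 1, ZT18 replicate 2 and ZT22 replicates 1 and 3), 7 without B6 ZT6 replicate 2 and 23 without B6 ZT22 replicate 1.

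**Figure D5:**
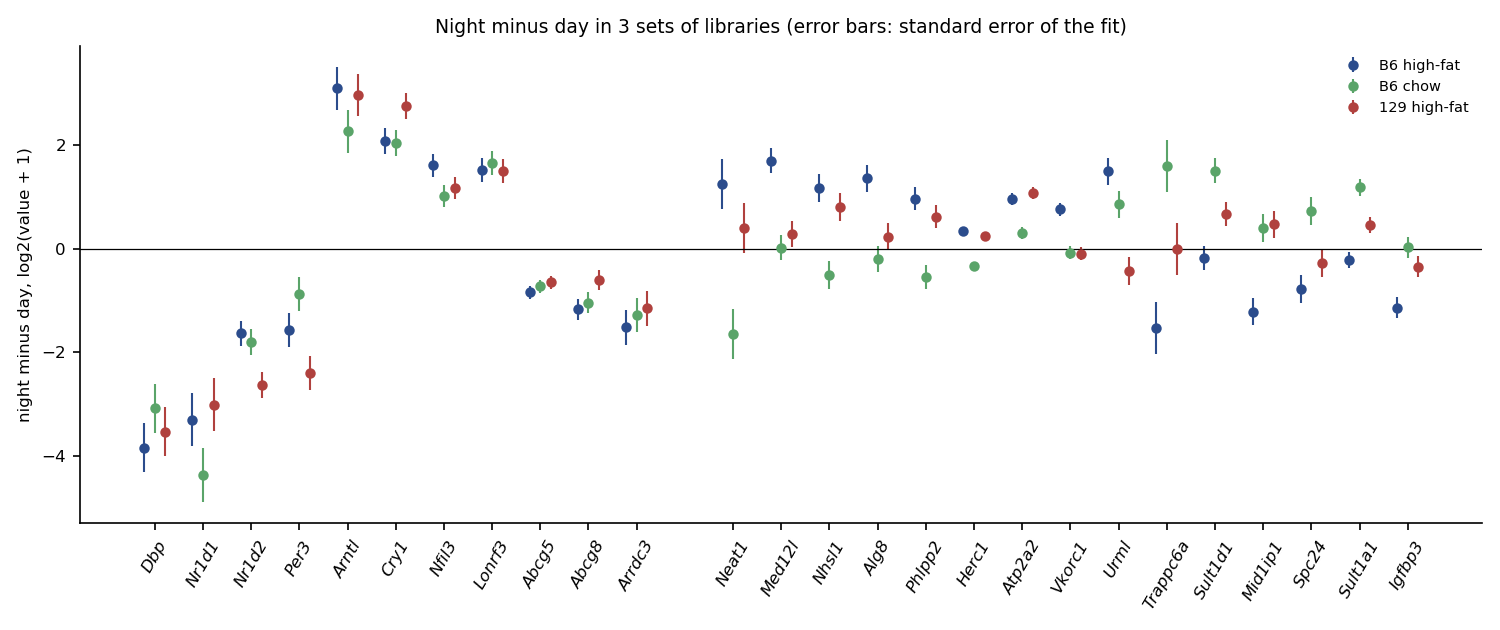
Night minus day on the log2(value + 1) scale (y axis) with the standard error of the fit to 72 libraries, in B6 high-fat (blue), B6 chow (green) and 129 high-fat (red) livers. Clock and sterol export genes on the left lie on the same side of 0 in all 3 sets, and the genes on the right include those whose difference between sets passed, such as Sult1a1 and Vkorc1.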

How the data were processed

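Liver RNA came from Trizol followed by RNeasy columns, and libraries were TruSeq, per the labels' protocols. For each RefSeq transcript the authors deposited a signal value, a read number after quantile normalisation. STAR, HOMER and build mm10 are named, without versions, per the submitters' processing notes. All 72 wild-type libraries of the table had identical sorted values (total 10837743, 23.5% at 0), checked on the file, so depth is unknown and no count model or counting interval was used. The table has 42361 transcripts of 25125 symbols. The transcript with the highest mean stood for its gene, and genes averaging at least 10 across the 72 libraries were tested, 11287 in all.

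Values were tested as log2(value + 1) with limma 3.58.1 under R 4.3.3 (moderated with a mean trend, two-sided, Benjamini-Hochberg over all genes, threshold 0.05). Night minus day was the mean of the ZT18 and ZT22 means minus the mean of the ZT6 and ZT10 means, in a fit of 6 time means to 18 libraries. Differences from B6 chow and 129 high-fat livers used 24 group means over 72 libraries. Each alternative changed 1 choice: pseudocount 5, no filter or a minimum mean of 50, transcripts chosen on the 12 libraries, median centring, array weights, a replicate block, Mir6236 as covariate, GC and length trend removed (11230 genes), other sets of libraries, and each library left out. Night against ZT10 alone, and ZT6 replicate 1 with ZT22 replicate 3 left out, were chosen after seeing the data. The members, the 50 gene lists and the naming rule were chosen with earlier results of these data known. Named genes are the clock list, the 10 largest rises and falls without overlap, and up to 4 called genes per list and direction. The 5 largest differences in each direction between sets were added. Other called genes are marked. List members that did not pass are also given with their values, some of them chosen after these were seen. Deviations of same-numbered replicates from their time means had a median correlation of 0.02 (45 pairs, -0.42 to 0.40, 7 of them over 0.1). This does not settle whether the numbers pair samples, and the main fits treated the libraries as unpaired. In simulated data for the night-day test (11287 genes), 64.2% of 67 genes changed by 1 log2 unit were recovered. Of 66 changed by 2, 93.9% were. For the difference from chow these shares were 46.3% and 78.8%, and for that from 129 they were 35.8% and 75.8%. The simulated noise was independent between libraries, with the same spread for a gene in all of them. No simulated library stood apart as ZT22 replicate 3 and ZT6 replicate 1 did, so these shares may be too high for the real data. Promoter windows are RefSeq, GRCm38.p6. The other deposited tables were not used here. Some genes that met the naming rule are not reported here.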

Additional observations from a re-analysis of the deposited data

Results flagged for a closer look

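Of 210 groups of 6 libraries examined for 1 library far from the other 5 (gap over range above Dixon's critical value), 25 held one. Chance would give about 1 in 20 for independent groups chosen without regard to their values. These groups share the same 12 libraries, and some of the genes were named after their values were seen. The count is therefore a description and not a test. ZT22 replicate 3 was that library in 12 night groups and ZT6 replicate 1 in 9 day groups. ZT22 replicate 3 was the lowest night library for Car3 (93.1 normalised reads), Scd1 (83.3), Cyp3a11 (27.4), G6pc (348), Esrra (16.6), Lonrf3 (90.5), Neat1 (6474) and Spc24 (11.7). It was the highest for S100a8 (6588), S100a9 (7952), Urml (1781) and the share of genes under 1 (0.567%). ZT6 replicate 1 was the lowest day library for Ciart (0.003), Cyp3a11 (4542), Fkbp5 (21.8), Fnip2 (266), Phlpp2 (7.48) and Tspan4 (36.6). It was the highest for Chka (231), Klb (519) and the share of genes under 1 (3.25%). The others were Abcg5 (371, high) and Tbc1d10a (9.57, low) in ZT18 replicate 1, Rora (726, low) in ZT6 replicate 2 and Sult1d1 (782, low) in ZT10 replicate 2.

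The night-minus-day difference itself differed from that on chow (limma interaction, log2) for Neat1 by 2.90, Med12l by 1.68, Nhsl1 by 1.67, Alg8 by 1.55, Phlpp2 by 1.51, Vkorc1 by 0.84, Herc1 by 0.68 and Atp2a2 by 0.65. In the other direction it differed for Trappc6a by -3.13, Sult1d1 by -1.69, Mid1ip1 by -1.61, Spc24 by -1.51, Sult1a1 by -1.40 and Igfbp3 by -1.16. From 129 on the same diet it differed for Urml by 1.92 and Vkorc1 by 0.86.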

How the results depend on the processing

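Counts of genes higher at night and by day (73 and 54) became 41 and 25 with no filter, 369 and 233 with array weights, 8 and 4 with Mir6236 as a covariate, 22 and 12 with only the 12 night and day libraries, 320 and 186 with all 72 libraries, 19 and 9 with night against ZT10 alone, 198 and 109 without ZT6 replicate 1 and ZT22 replicate 3, and 109 and 124 with the GC and length trend removed. Without 1 library they ran from 23 to 138 and from 12 to 101. The 52 differences from chow became 13 with no filter, 853 with array weights, 14 with Mir6236, 15 with the GC and length trend removed and 2 in a fit of 36 libraries, and ran from 6 to 203 without 1 library. The 3 differences from 129 became 1, 94 and 5 with no filter, array weights and the trend removed, and ran from 1 to 23 without 1 library. The cause of these shifts was not tested, except that fewer libraries enter the smaller fits. With a replicate block the counts were 58 and 45, 42, and 2. Of 18 libraries, 6 correlated best with their own number, which does not settle whether the numbers pair the samples. Pseudocount 5, a minimum mean of 50, other transcripts and median centring kept each count within 1.5 times.

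Sequencing depth cannot be read from quantile-normalised values, so low genes carry no counting error here, and sizes of genes near 0 depend on the pseudocount.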
